A study of Mus musculus with 4 samples.

Results

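The SoxD, SoxE and SoxF genes encode 3 related subgroups of the Sox family of transcription factors, which bind DNA through an HMG box. Membership is by subgroup name: Sox5, Sox6 and Sox13 (SoxD), Sox8, Sox9 and Sox10 (SoxE), and Sox7, Sox17 and Sox18 (SoxF). All 9 were found among the 24421 gene symbols of the count tables, and 7 had enough counts to be tested. Sox17 and Sox18 did not.

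The cells were neural stem cells from the cortex of C57BL/6J mouse embryos at embryonic day 17, grown for 1 day in medium with the mitogens bFGF and EGF, and their poly(A) RNA was sequenced. The 2 libraries called floxed here carried Prrc2bf/f, that is, Prrc2b alleles flanked by loxP sites. The 2 libraries called Nestin-Cre carried Prrc2bf/f; Nestin-Cre, the same floxed alleles with a Cre recombinase under Nes regulatory sequence. The question is how the transcriptome differs when Prrc2b, which encodes a proline-rich coiled-coil protein, is deleted in neural cells. Nestin-Cre is active in neural progenitors and their progeny, and cells of other origin in a culture can keep the floxed allele.

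SoxD proteins have no activation or repression domain of their own and work by binding beside other factors. In the developing brain Sox5 and Sox6 help to time the production of neuron types and hold oligodendrocyte precursors back from maturation, and in cartilage they act together with Sox9. SoxE proteins are activators: Sox9 establishes and maintains neural stem cells and starts gliogenesis, Sox8 works beside it, and Sox10 drives oligodendrocyte differentiation and the neural crest. SoxF proteins are best known from endothelial cells, where Sox7, Sox17 and Sox18 overlap in the formation of arteries, veins and lymphatics.

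Gene totals lay between 25936794 and 28263272 counts per library, so that 3 counts stood for 0.106 to 0.115 counts-per-million (CPM). The labels do not say whether the 2 replicates of a group are separate embryos or cultures. The p-values therefore rest on the spread between these libraries alone, which may be technical. Among the defining markers of neural stem cells, Sox2 stood at 216 CPM per kilobase of exon in floxed and 215 in Nestin-Cre libraries. On the same scale Nes stood at 98.2 in floxed and 84.1 in Nestin-Cre libraries. In plain CPM, Nes stood at 632 and 629 in floxed and 539 and 540 in Nestin-Cre libraries (log2 fold change -0.22 ± 0.02 SE, edgeR quasi-likelihood test, adjusted p = 1.6e-10). Prrc2b itself stood at 588, 594, 575 and 573 CPM in floxed 1, floxed 2, Nestin-Cre 1 and Nestin-Cre 2 (-0.04 ± 0.02, adjusted p = 0.134). The sources used here do not name the exon between the loxP sites, and the other exons would still be counted, so the gene total is no check of genotype. The Y-linked gene Ddx3y was at 24.5 and 23.7 CPM in floxed libraries and at 0 in both Nestin-Cre libraries. Xist, the RNA of the inactive X chromosome in female cells, was at 1673 and 1615 CPM in floxed and at 2209 and 2119 CPM in Nestin-Cre libraries, so the floxed libraries held both Y-linked transcripts and Xist. Embryo sex, Cre and genotype therefore cannot be told apart in any difference reported here.

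What the 9 genes share is the HMG box. From its coding sequence, 60 bases are printed from the GENCODE M21 transcripts, 5′ to 3′, starting at the codons for the conserved residues RPMNAF. They are printed because they show how close the members of a subgroup are and where they part. Capitals mark the positions at which the 3 genes of the same subgroup are not all alike: 11 in SoxD, 10 in SoxE and 17 in SoxF.
Sox5: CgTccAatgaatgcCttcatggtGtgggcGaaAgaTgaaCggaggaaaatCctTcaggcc
Sox6: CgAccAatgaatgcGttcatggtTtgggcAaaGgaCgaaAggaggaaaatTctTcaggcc
Sox13: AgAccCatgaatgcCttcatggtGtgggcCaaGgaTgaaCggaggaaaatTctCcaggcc
Sox8: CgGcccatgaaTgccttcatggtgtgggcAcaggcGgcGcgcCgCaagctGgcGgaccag
Sox9: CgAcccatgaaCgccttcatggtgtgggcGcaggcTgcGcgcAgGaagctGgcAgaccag
Sox10: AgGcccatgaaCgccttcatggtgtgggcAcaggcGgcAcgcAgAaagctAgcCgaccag
Sox7: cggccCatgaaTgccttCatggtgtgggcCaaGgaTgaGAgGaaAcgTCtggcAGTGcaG
Sox17: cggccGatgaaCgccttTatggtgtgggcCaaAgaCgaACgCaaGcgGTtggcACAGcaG
Sox18: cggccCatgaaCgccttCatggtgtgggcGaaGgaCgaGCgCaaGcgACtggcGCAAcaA

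Over 70 codons of the box from the same start, pairs from the same subgroup shared 78.1% to 86.2% of the bases and 80% to 98.6% of the encoded residues (9 pairs). Pairs from different subgroups shared 52.9% to 77.6% of the bases and 47.1% to 72.9% of the residues (27 pairs). The closest pair by residues was Sox8 and Sox9, at 98.6%, with 86.2% of the bases alike. The longest run of identical bases in any pair was 35, between Sox13 and Sox7. Reads of 150 bases were sequenced in pairs, and in sense orientation the similarity left few stretches in which genes could be confused. Of all 50-base windows in the members' transcripts, 22 of 14537 in Sox5 and 2 of 3250 in Sox7 occurred in a transcript of another gene, and 0 in the other 7 members. Bases shared with genes on the opposite strand, as in Sox5, Sox8 and Sox17, were not counted.

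Of the 7 tested members, 5 passed the test (adjusted p under 0.05). Sox5, Sox8 and Sox10 rose in Nestin-Cre libraries and Sox9 and Sox7 fell. Across the transcriptome 4974 of 15012 genes passed (33.1%), with 15.1% higher and 18.1% lower, and 64.9% of all genes had groups that did not overlap, against 5 of these 7 members. The differences among the members were uneven in size. Sox7 was one of 312 genes that fell at least 2-fold, and 33 genes had a lower log2 fold change. Sox8 rose by 0.69 on the log2 scale, a value reached by 219 of the genes that rose, and 49 genes had a smaller p. The differences of Sox5, Sox9 and Sox10 lay closer to 0.24, the median size among all genes called.

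**Figure D1:**
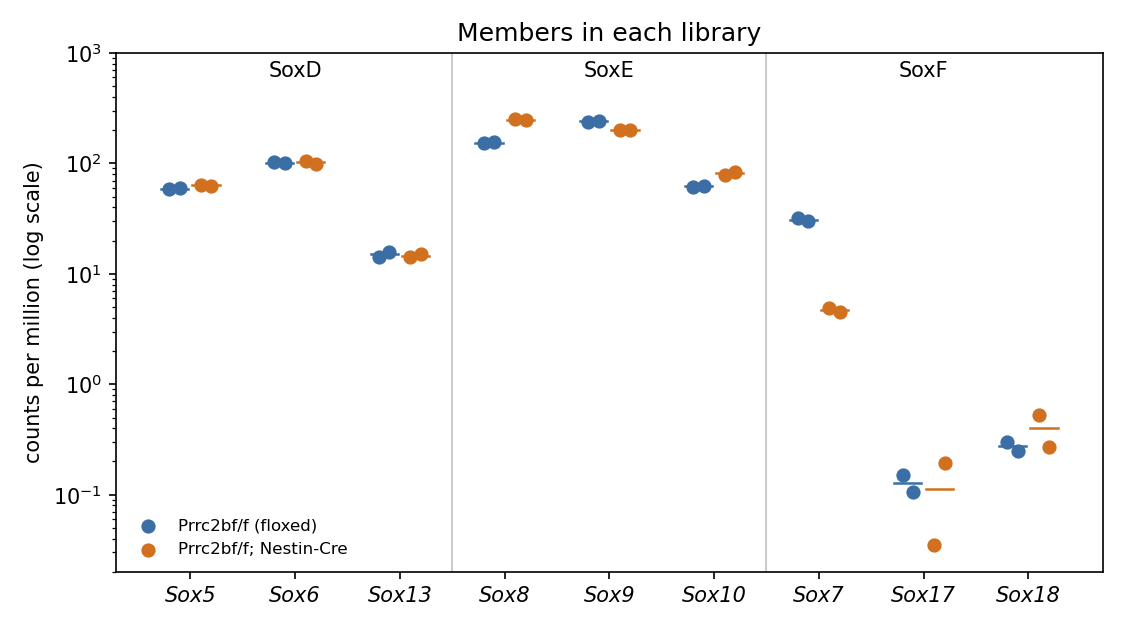
Level of each SoxD, SoxE and SoxF gene in CPM on a log axis; points are the 4 libraries (blue floxed, orange Nestin-Cre) and horizontal bars are group means (n = 2). The orange points of Sox8 and Sox10 lie above the blue ones and those of Sox9 and Sox7 below, the points of Sox6 and Sox13 overlap, and Sox17 and Sox18 lie under 1 CPM in every library.

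Levels of different genes were compared as CPM per kilobase of exon. In floxed libraries Sox9 was the most abundant member at 58.0 ± 0.781 (mean ± SD, n = 2), followed by Sox8 at 49.3 ± 0.544, Sox10 at 20.3 ± 0.236, Sox7 at 9.40 ± 0.359, Sox6 at 6.85 ± 0.0825, Sox5 at 4.09 ± 0.0598 and Sox13 at 3.47 ± 0.232. Sox18 stood at 0.170 ± 0.0238 and Sox17 at 0.0270 ± 0.00666. Neighbours in this order were apart by more than their spread. In Nestin-Cre libraries Sox8 came first at 79.7 ± 0.857, ahead of Sox9 at 48.9 ± 0.0941 and Sox10 at 26.7 ± 1.15, and Sox7 at 1.44 ± 0.0884 had moved below the 3 SoxD genes. When the longest transcript was used as the length, Sox6 stood at 11.7 in floxed libraries, above Sox7 at 9.40, so the order of those genes depends on the length chosen.

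**Figure D2:**
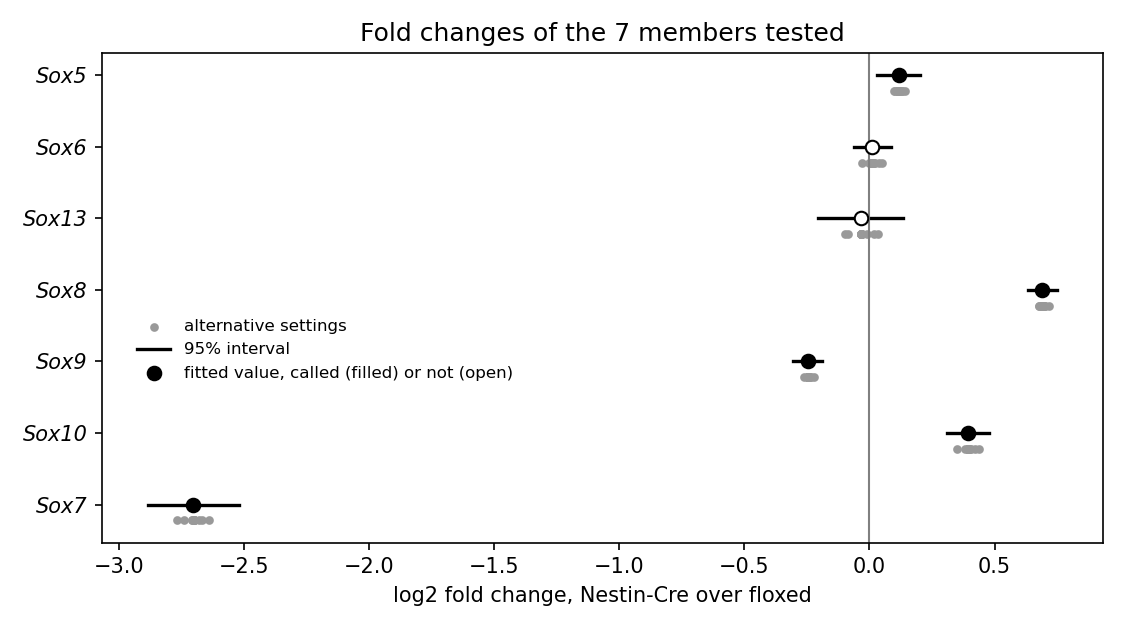
Log2 fold change (Nestin-Cre over floxed) of the 7 tested members: large points are the fitted values, filled where the gene passed the test, lines are 95% intervals of the edgeR fit and small grey points are the values under the alternative settings. Sox7 lies at -2.70 and Sox8 at 0.69, and the intervals of Sox6 and Sox13 include 0.

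The SoxD genes differed little between the groups. Sox6, which is expressed in cortical progenitors and in interneurons derived from the medial ganglionic eminence, was the most abundant of them in CPM and per length. It stood at 102, 101, 105 and 99.6 CPM in floxed 1, floxed 2, Nestin-Cre 1 and Nestin-Cre 2. The 2 groups overlapped, with the Nestin-Cre libraries holding both the highest and the lowest value. The log2 fold change of 0.01 ± 0.04 did not pass (edgeR, adjusted p = 0.843), with a ratio between 0.958 and 1.06 at 95% confidence. Sox6 lies on the minus strand of chromosome 7 from 115470872 to 116038796 (mm10).

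Sox13, the third SoxD gene and the least abundant, stood at 14.3, 15.7, 14.1 and 15.2 CPM in the same order. Replicate 2 was higher than replicate 1 in both groups and the groups overlapped. The difference of -0.04 ± 0.08 on the log2 scale did not pass (edgeR, adjusted p = 0.790), with a ratio between 0.868 and 1.10. The gene is on the minus strand of chromosome 1, from 133382303 to 133424377.

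Sox5, which in the cortex controls the order in which deep-layer projection neurons differentiate and migrate, stood at 58.2 and 59.4 CPM in floxed libraries and at 64.4 and 63.1 CPM in Nestin-Cre libraries. Both Nestin-Cre libraries were above both floxed libraries, by a small margin. Sox5 thus rose by 0.12 ± 0.04 on the log2 scale (edgeR, adjusted p = 0.0334), with a ratio between 1.02 and 1.15. It is a long gene on the minus strand of chromosome 6, from 143828425 to 144781977. An antisense gene within it, Sox5os3, had 1 count in all 4 libraries together and shares 0 exonic bases with Sox5. Another antisense gene, Sox5os1, shares 1330 bases, or 9.25% of the Sox5 exons, and is not among the counted symbols. This call is the least firm among the 5: it was lost without each of the 4 libraries in turn (adjusted p from 0.0564 to 0.181), without the low-count filter (0.0613) and with DESeq2 (0.245). The genes whose level relative to their own mean ran closest to that of Sox5 over the 4 libraries were Ndufb6, Vdac3 and BC052040. Their distances were 0.00391 to 0.00461 on the log2 scale, among 12440 genes compared. They were chosen by closeness, so this likeness is no separate result.

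Together the SoxD genes summed to 175 and 176 CPM in floxed libraries and to 184 and 178 CPM in Nestin-Cre libraries. The makeup of the subgroup shifted slightly: per length, Sox5 made up 28.39% and 28.4% of the SoxD level in floxed libraries and 30.22% and 30.00% in Nestin-Cre libraries. The share of Sox6 overlapped between groups, at 48.4% and 46.62% against 47.72% and 45.91%.

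Genes of the neurons in which Sox5 and Sox6 are known to act were compared in the same fit. Of 9 tested deep-layer cortical neuron genes, 1 rose, 1 fell and 7 did not pass, with a median log2 fold change of -0.0092 against 0.0047 over all genes tested. Fezf2, the selector gene of corticofugal neurons, stood at 17.5, 16.3, 17.5 and 16.0 CPM in floxed 1, floxed 2, Nestin-Cre 1 and Nestin-Cre 2 (-0.01 ± 0.08, edgeR adjusted p = 0.944). Tbr1, the layer 6 regulator, was the gene that rose, from 28.5 and 27.6 to 33.0 and 30.1 CPM (0.17 ± 0.06, adjusted p = 0.0241), a call lost without floxed replicate 2 (adjusted p = 0.122) or Nestin-Cre replicate 1 (adjusted p = 0.349), without the low-count filter (0.0665), with DESeq2 (0.226) and in the test against a 1.2-fold change. Crym, a thyroid hormone binding protein gene of deep layers, fell from 28.9 and 29.2 to 17.4 and 17.6 CPM (-0.73 ± 0.07, adjusted p = 1.2e-11). These 9 genes did not move as a body, and their summed level was 286 and 284 CPM in floxed and 286 and 275 CPM in Nestin-Cre libraries.

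Of 16 tested interneuron genes of the ventral telencephalon, 3 rose, 8 fell and 5 did not pass, with a median of -0.18. Their summed level overlapped between the groups, at 467 and 465 CPM in floxed and 457 and 470 CPM in Nestin-Cre libraries. Lhx6, the regulator upstream of Sox6 in these cells, did not pass, at 23.9 and 22.7 CPM against 25.0 and 24.0 CPM (0.07 ± 0.07, edgeR adjusted p = 0.418). Satb1, a chromatin organiser that acts in somatostatin interneurons, rose from 88.5 and 83.9 to 106 and 107 CPM (0.31 ± 0.04), and the neuropeptide gene Sst rose from 53.0 and 53.1 to 66.0 and 63.6 CPM (0.29 ± 0.04). Gad2, a GABA-synthesising enzyme gene, fell from 31.0 in both floxed libraries to 24.5 and 23.2 CPM (-0.38 ± 0.06), and the transcription factor gene Maf fell from 29.5 in both to 24.0 and 23.2 CPM (-0.32 ± 0.06). The number of interneuron genes called lower went from 8 to 2 without Nestin-Cre replicate 1 and to 3 with DESeq2.

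The SoxE genes all differed, and in opposite directions. Sox8 stood at 153 and 155 CPM in floxed libraries and at 250 and 246 CPM in Nestin-Cre libraries. The gap between the groups was far wider than the spread within them. Sox8 rose by 0.69 ± 0.03 on the log2 scale (edgeR, adjusted p = 3.1e-21), with a ratio between 1.55 and 1.68.

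Sox10, whose product directly activates myelin genes, stood at 61.4 and 62.4 CPM in floxed libraries and at 78.9 and 83.8 CPM in Nestin-Cre libraries. Again both Nestin-Cre libraries were higher than both floxed libraries. The rise was 0.39 ± 0.04 on the log2 scale (edgeR, adjusted p = 6.6e-10), with a ratio between 1.24 and 1.39. Sox10 lies on the minus strand of chromosome 15 from 79154908 to 79165240.

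Sox9 moved the other way. It stood at 238 and 242 CPM in floxed libraries and at 202 in both Nestin-Cre libraries, and the groups did not overlap. Its log2 fold change was -0.25 ± 0.03 (edgeR, adjusted p = 3.5e-09), with a ratio between 0.810 and 0.877. Its position is 112782224 to 112787760 of chromosome 11, plus strand. In a test against a 1.2-fold change Sox9 did not pass (adjusted p = 1), whereas Sox8, Sox10 and Sox7 did.

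The subgroup as a whole was higher in the Nestin-Cre libraries, with the 3 genes summing to 452 and 460 CPM in floxed and to 531 and 532 CPM in Nestin-Cre libraries. Within it the leading gene changed. Per length, Sox9 made up 45.4% and 45.48% of the SoxE level in floxed libraries and 31.56% and 31.42% in Nestin-Cre libraries, while Sox8 went from 38.7% and 38.63% to 51.76% and 50.89%. The ratio of Sox8 to Sox9 was 0.852 and 0.849 in floxed libraries and 1.64 and 1.62 in Nestin-Cre libraries. This ratio is taken within a library and does not depend on how libraries were scaled. The share of Sox10 was slightly higher in Nestin-Cre libraries, at 15.9% and 15.89% against 16.67% and 17.69%. Sox10 was higher relative to Sox9 (ratios of 0.350 and 0.349 against 0.528 and 0.563) and lower relative to Sox8 (0.411 in both against 0.322 and 0.348). None of these shares was tested.

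**Figure D3:**
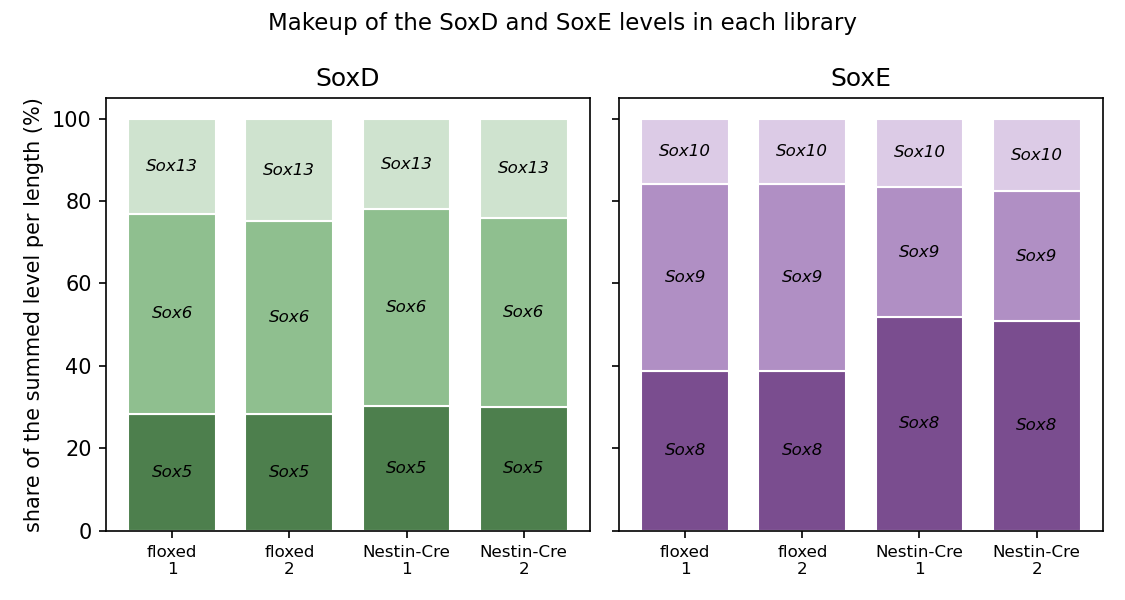
Share of each gene in the length-scaled level of its subgroup, in percent, in each of the 4 libraries for SoxD (left) and SoxE (right). The segment of Sox8 is larger than that of Sox9 in both Nestin-Cre libraries and smaller in both floxed libraries, while the SoxD segments differ little.

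Sox8 is a compact gene on the minus strand of chromosome 17, from 25565892 to 25570686 (mm10), with 3118 bases of exon. An antisense gene, 2810468N07Rik, starts inside it and runs from 25570358 to 25575043 on the plus strand. The 2 genes share 329 exonic bases, or 10.6% of the Sox8 exons. The 250 bases before the Sox8 start (RefSeq, GRCm38.p6, chr17:25570687-25570936, minus strand) lie wholly within an exon of that antisense gene. They are shown because both transcripts differed between the groups, and capitals mark the letters GGGCGG of a GC box.
Sox8 promoter: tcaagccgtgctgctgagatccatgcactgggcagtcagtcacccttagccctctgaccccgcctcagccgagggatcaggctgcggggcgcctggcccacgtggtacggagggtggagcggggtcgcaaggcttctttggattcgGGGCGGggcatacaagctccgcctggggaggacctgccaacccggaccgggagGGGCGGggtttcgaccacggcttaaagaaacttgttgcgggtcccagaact

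The window is 65.6% G and C and holds GGGCGG 2 times, searched on both strands. Of 32851 promoter windows of the same length in the RefSeq table, 10756 (32.7%) hold it. 2810468N07Rik stood at 21.2 and 21.0 CPM in floxed libraries and at 42.4 and 40.8 CPM in Nestin-Cre libraries, with no overlap (0.98 ± 0.06, edgeR adjusted p = 1.4e-16). The libraries mark strand, but the sources used here do not state the strand setting of the counting, and reads from the 329 shared bases cannot be assigned to 1 of the genes with certainty. In counts, Sox8 had 4032, 4369, 7074 and 6406 and 2810468N07Rik had 561, 592, 1199 and 1060 in floxed 1, floxed 2, Nestin-Cre 1 and Nestin-Cre 2.

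Oligodendrocyte lineage genes, among which Sox8 and Sox10 act, were compared next. Of 10 tested oligodendrocyte precursor genes, 3 rose, 2 fell and 5 did not pass, with a median log2 fold change of 0.04. Cspg4, the NG2 proteoglycan gene, rose from 72.3 and 70.1 to 98.2 and 102 CPM (0.49 ± 0.04, edgeR adjusted p = 3.2e-13). The lineage factor gene Olig1 rose from 747 and 773 to 841 and 870 CPM (0.17 ± 0.02), whereas Olig2, its neighbour in the genome and the factor that specifies the lineage, fell from 382 and 398 to 351 and 357 CPM (-0.14 ± 0.03, adjusted p = 3.6e-05). C1ql1, a complement-like secreted protein gene of precursors, fell from 14.2 and 15.1 to 9.48 and 9.85 CPM (-0.60 ± 0.09), and the growth factor receptor gene Pdgfra did not pass, at 78.7 and 75.6 against 82.0 and 81.8 CPM (0.09 ± 0.04, adjusted p = 0.0901). The precursor genes thus moved both ways, and their summed level was 3041 and 3037 CPM in floxed and 3109 and 3120 CPM in Nestin-Cre libraries.

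Of 12 tested genes of differentiating oligodendrocytes and myelin, 5 rose, 0 fell and 7 did not pass, with a median of 0.29 and a summed level of 271 and 277 CPM against 354 and 355 CPM. Gpr17, a receptor gene of newly committed oligodendrocytes, rose from 31.0 and 31.5 to 52.0 and 51.1 CPM (0.72 ± 0.05, edgeR adjusted p = 1.8e-14). Bcas1, a marker of early myelinating cells, rose from 42.1 and 45.0 to 63.0 and 59.4 CPM (0.49 ± 0.05), and Cnp, which encodes a myelin-associated phosphodiesterase, rose from 141 and 143 to 174 and 179 CPM (0.31 ± 0.03). Myrf, which works with Sox10 at myelin genes, rose from 11.9 and 10.6 to 14.5 and 14.3 CPM (0.36 ± 0.09, adjusted p = 0.0016), a call lost in the test against a 1.2-fold change and with DESeq2, which called 3 of these genes higher and 0 lower. Mbp, a major component of mature myelin, did not pass at 23.7 and 25.3 against 26.6 and 25.5 CPM (0.09 ± 0.06, adjusted p = 0.324). Among 12440 genes compared, those closest to Sox8 in their course over the 4 libraries were Gpr17 (distance 0.0286 on the log2 scale), Prkcq (0.0377) and Slc6a9 (0.0429). Prkcq is a protein kinase C gene and Slc6a9 a glycine transporter gene. All were chosen by closeness to Sox8, so their likeness to it is no separate result.

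Gliogenic and astrocyte genes, the setting of Sox9, moved both ways. Of 16 tested, 5 rose, 6 fell and 5 did not pass, with a median of 0.0091 and a summed level of 6935 and 6869 CPM against 5896 and 5920 CPM. Gfap, the intermediate filament gene of astrocytes, fell from 860 and 879 to 327 and 322 CPM (-1.42 ± 0.02, edgeR adjusted p = 1.6e-34). The water channel gene Aqp4 fell from 150 and 146 to 95.6 and 96.4 CPM (-0.62 ± 0.03) and the glutamate transporter gene Slc1a3 from 1482 and 1446 to 1144 and 1139 CPM (-0.36 ± 0.02). Fgfr3, a receptor gene of glial progenitors, rose from 129 and 127 to 190 and 195 CPM (0.59 ± 0.03). Nfia, which like Sox9 is needed to start gliogenesis, rose from 132 and 131 to 149 and 144 CPM (0.16 ± 0.03, edgeR adjusted p = 0.00016). Mmd2 rose from 257 and 259 to 309 and 312 CPM (0.27 ± 0.03). In the same list Apcdd1 did not pass (0.05 ± 0.06, edgeR adjusted p = 0.551), and Zcchc24 fell (-0.09 ± 0.03, adjusted p = 0.0101). Nfia, Mmd2, Apcdd1 and Zcchc24 were picked for description after their values were seen.

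Choroid plexus and multiciliated cell genes differed between the same libraries. Of 8 tested, 5 rose and 1 fell, with a median of 2.37 and a summed level of 241 and 250 CPM against 1359 and 1375 CPM. Most of that sum was Ttr, the thyroid hormone carrier of choroid plexus epithelium, at 178 and 186 against 1271 and 1290 CPM. Also among the 5 that rose were Folr1 (2.99 ± 0.15), Kcne2 (2.46 ± 0.20) and Clic6 (2.29 ± 0.11). The gene that fell was Foxj1, from 32.4 and 34.5 to 24.9 and 24.2 CPM (-0.45 ± 0.06, edgeR adjusted p = 1.4e-07). Otx2 (0.02 ± 0.07) and Ccno (-0.27 ± 0.26) did not pass. The list joins choroid plexus and multiciliated cell genes, and its median describes neither set alone. The part of these cells in the SoxE differences was not tested.

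Sox7 showed the largest difference of the 7 tested members. It stood at 31.8 and 30.2 CPM in floxed libraries and at 4.95 and 4.54 CPM in Nestin-Cre libraries, or 841 and 850 counts against 140 and 118. The groups were far apart and the replicates close. Sox7 was 6.51-fold lower in Nestin-Cre libraries (95% interval 5.74 to 7.39), or -2.70 ± 0.09 on the log2 scale (edgeR, adjusted p = 1.8e-24). In these bulk samples fewer cells of a type and less RNA per cell cannot be told apart. The gene occupies 63943673 to 63950732 of chromosome 14, plus strand (mm10).

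The other SoxF genes were scarce in every library. Sox17 had 4, 3, 1 and 5 counts and Sox18 had 8, 7, 15 and 7 counts in floxed 1, floxed 2, Nestin-Cre 1 and Nestin-Cre 2. The highest of these values was 0.531 CPM, and the groups overlapped in CPM for both genes. A fit without the low-count filter gave -0.21 ± 0.86 for Sox17 (edgeR, adjusted p = 0.897) and 0.55 ± 0.51 for Sox18 (adjusted p = 0.495). With so few counts a moderate difference was not detectable. Sox7 therefore made up nearly the whole SoxF sum, which was 32.3 and 30.5 CPM in floxed and 5.52 and 5.00 CPM in Nestin-Cre libraries. Per length its share of that subgroup was 97.78% and 98.12% in floxed and 81.76% and 86.95% in Nestin-Cre libraries.

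Endothelial genes, the usual setting of SoxF, moved both ways. Of 21 tested, 3 rose, 5 fell and 13 did not pass, with a median log2 fold change of 0.09 and a summed level of 266 and 264 CPM in floxed against 230 and 234 CPM in Nestin-Cre libraries. Most of that sum was Efnb2 and Unc5b. Efnb2 fell from 102 CPM in both floxed libraries to 90.6 and 92.3 CPM in Nestin-Cre libraries (-0.16 ± 0.04). The sum therefore says little about Cdh5, Pecam1 and Cldn5, which stood far lower. Cdh5, the cadherin gene of endothelial junctions, fell from 2.57 and 2.24 to 0.849 and 1.19 CPM (-1.24 ± 0.25, edgeR adjusted p = 0.00014). Pecam1, an adhesion molecule gene of endothelium, did not pass at 3.07 and 2.34 against 3.15 and 2.58 CPM (0.09 ± 0.19, adjusted p = 0.757), nor did the tight junction gene Cldn5 at 1.06 and 0.994 against 1.13 and 1.50 CPM (0.35 ± 0.29, adjusted p = 0.379). In floxed libraries Sox7 stood at 9.40 CPM per kilobase of exon, above Cdh5 at 0.572 ± 0.0570, Pecam1 at 0.434 ± 0.0822 and Cldn5 at 0.725 ± 0.0332.

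The 4 endothelial genes with the smallest p were 2 that fell and 2 that rose. The VEGF receptor gene Flt1 fell from 11.3 and 12.6 to 4.14 and 4.31 CPM (-1.50 ± 0.12, edgeR adjusted p = 3.6e-13). The netrin receptor gene Unc5b, which neural cells also express, fell from 65.1 and 63.4 to 38.5 and 40.0 CPM (-0.71 ± 0.05). Mfsd2a, the lipid transporter gene of the blood-brain barrier, rose from 17.9 and 15.3 to 23.5 and 23.8 CPM (0.51 ± 0.07). The organic anion transporter gene Slco1a4 rose from 0.341 and 0.177 to 0.884 and 1.73 CPM (2.31 ± 0.43). Besides these, Kdr rose from 2.27 and 2.70 to 3.96 and 4.69 CPM (0.79 ± 0.18, edgeR adjusted p = 0.00045), while 5 genes of the list fell.

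Markers of other non-neural cells were lower in the Nestin-Cre libraries together with Sox7. Of 12 tested mural cell and fibroblast genes, 8 fell, 1 rose and 3 did not pass, with a median of -0.88. Their summed level was 200 and 195 CPM in floxed and 71.4 and 76.2 CPM in Nestin-Cre libraries. The fibrillar collagen genes Col3a1, at 67.4 and 64.5 against 8.56 and 9.43 CPM (-2.88 ± 0.07), and Col1a1, at 52.9 and 51.3 against 11.8 and 13.5 CPM (-2.04 ± 0.06), made up much of it, while Acta2, the smooth muscle actin gene, was the one that rose (0.57 ± 0.10). Microglia and macrophage genes were near the limit of detection, with 5 of 6 tested genes lower, 0 higher, a median of -1.58 and sums of 7.12 and 8.80 CPM against 3.93 and 3.04 CPM. The 5 became 3 without Nestin-Cre replicate 2 or with DESeq2 and 2 with the stricter low-count filter, and the 0 higher became 1 without Nestin-Cre replicate 2 or without the low-count filter. The part of mural, fibroblast and microglial cells in the difference of Sox7 was not tested.

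**Figure D4:**
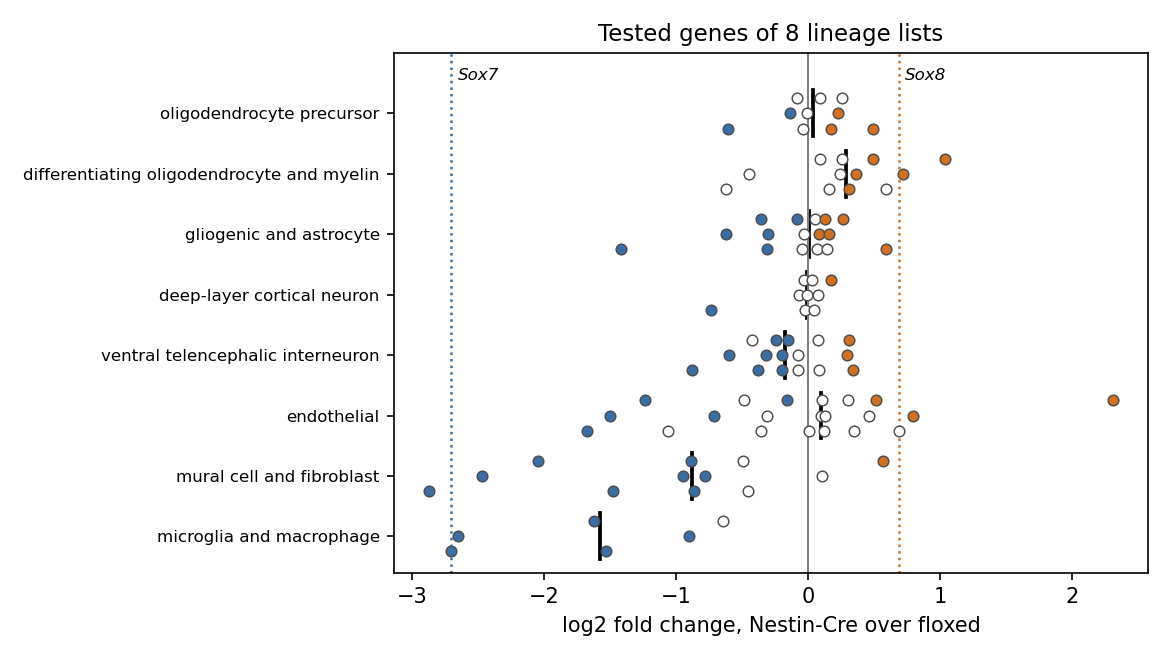
Log2 fold change (Nestin-Cre over floxed) of each tested gene in 8 lists, with genes that rose in orange, genes that fell in blue and genes that did not pass open; black bars are the medians of the lists and dotted lines mark Sox7 and Sox8. Mural cell and fibroblast genes lie mostly below 0 with a median of -0.88, and the oligodendrocyte precursor and endothelial lists have medians of 0.04 and 0.09.

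The genes closest to Sox7 in their course over the 4 libraries were Oasl2 (distance 0.0685 on the log2 scale), Ccl2 (0.143) and Serpina3n (0.208) among 12440 compared. Oasl2 is an interferon-inducible gene, Ccl2 a chemokine gene and Serpina3n an acute-phase protease inhibitor gene of reactive astrocytes. Oasl2 and Serpina3n have close paralogs, and their reads could be split. The log2 fold change was -2.69 for Oasl2, -2.66 for Ccl2 and -2.49 for Serpina3n, beside -2.70 for Sox7. This likeness follows from choosing the genes by closeness and is no separate result.

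Other Sox genes were set beside these members. Of 8 tested, 4 rose (Sox3, Sox4, Sox11 and Sox21), 0 fell and 4 did not pass, with a median of 0.15. The values of those that rose lay between 0.07 for Sox11, a call lost without each library in turn, without the low-count filter, with DESeq2 and in the test against a 1.2-fold change, and 0.24 for Sox21, below those of Sox8 and Sox10. Sox2, the stem cell factor, stood at 432 and 459 CPM in floxed and 442 and 444 CPM in Nestin-Cre libraries (-0.01). Whether the subgroups differ from these genes was not tested.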

How the data were processed

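The deposited tables hold raw counts per gene symbol, 1 table per library, with no normalization. Per the labels' protocols, RNA was poly(A)-selected, libraries mark strand by dUTP and reads were paired. The build was mm10, and HTSeq 0.12.4, HISAT2 2.2.1 and DESeq2 1.26.0 are named, per the submitters' processing notes. The sources used here do not state the annotation or the strand setting of the counting. Summary lines for reads assigned to no gene (25.2% to 26.1% of entries) entered neither library sizes nor tests. Depth in a library limits precision for rare genes such as Sox17, and floors and intervals on counts cover counting error only.

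Counts were fitted with edgeR 4.0.16 (R 4.3.3): filterByExpr with a minimum count of 10, TMM scaling, the quasi-likelihood F test with legacy turned off, and adjustment by Benjamini-Hochberg across the 15012 tested genes, with calls at 0.05. CPM are on TMM-scaled library sizes, ± is the SD over 2 libraries for levels and the SE for log2 fold changes, and intervals of ratios come from that SE. Levels per kilobase used the union of exons in GENCODE M21 (GRCm38, which is mm10). With 2 against 2 libraries the smallest two-sided permutation p is 0.333, so none was run. Libraries of a group differed by more than sampling noise (chi-square per gene of 1.96 and 2.2) and were kept as replicates.

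Named genes are the 9 members, genes overlapping them, Prrc2b, Nes, preset marker genes, up to 4 genes per list with the smallest p, and for 1 member per subgroup the 3 genes of at least 1 mean log2 CPM with the closest centred course. Those added after their values were seen are Ddx3y and Xist, which are sex-linked, Acta2, Nfia, Mmd2, Apcdd1 and Zcchc24. The same holds for Foxj1, Otx2, Ccno, Efnb2, Kdr and Ednrb. A few genes that the rule names are not reported here. The members and the lists were chosen with earlier results of these data known. Alternatives were 3 other scalings, 2 other filters, legacy edgeR, DESeq2 1.42.0, limma 3.58.1 voom, a test against a 1.2-fold change, a threshold of 0.01, a replicate block and leaving out each library.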

Additional observations from a re-analysis of the deposited data

How the results depend on the processing

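Sox8, Sox10 and Sox7 kept their direction and passed in all 14 alternatives, with log2 fold changes of 0.68 to 0.72, 0.35 to 0.44 and -2.77 to -2.64. Sox9 (-0.26 to -0.22) passed in 13 and missed in the test against a 1.2-fold change (-0.25). Sox5 missed without the low-count filter, with DESeq2 and in the test against a 1.2-fold change (0.12 in each), and without each library (0.10 to 0.13); leaving a group with 1 library assumes that it varies like the other group. Sox6 turned to -0.00193 and -0.028 without floxed replicate 2 and without Nestin-Cre replicate 1 (range -0.028 to 0.049), and Sox13 to 0.035 and 0.018 without the same libraries (range -0.10 to 0.035). Among the other genes named by the rule, Fezf2 turned to 0.018 with upper quartile scaling and ranged from -0.081 to 0.053 over the omitted libraries, with 0.037 and 0.053 without floxed replicate 1 and Nestin-Cre replicate 2. Pecam1 ranged from -0.095 to 0.29, negative without floxed replicate 2 (-0.095) and Nestin-Cre replicate 1 (-0.0638), and Tle4 from -0.015 (without Nestin-Cre replicate 1) to 0.074. Members called lower numbered 1 in the test against a 1.2-fold change, which also left 0 calls in the interneuron list and 0 rises among other Sox genes, of which 1 was called lower without floxed replicate 1. Over all genes, DESeq2 called 1055 higher and 1642 lower, the test against a 1.2-fold change 279 and 760, and a threshold of 0.01 called 1490 higher; omitted libraries gave 1738 to 1843 higher and 2249 to 2442 lower. With upper quartile scaling the counts were 2939 and 2288, so that 56.2% of calls were higher against 45.5% with TMM scaling. The labels do not say whether equal replicate numbers pair libraries. The correlation of same-numbered deviations was -0.017, and with 2 libraries per group it cannot decide this. With a replicate block 2443 genes were higher and 2881 lower, and 3 members were higher and 2 lower as before.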

Other observations

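Cartilage matrix genes, which Sox9 activates with Sox5 and Sox6 in chondrocytes, were measured in these neural cultures as well. Of 12 tested, 3 rose, 3 fell and 6 did not pass, with a median log2 fold change of -0.03 and a summed level of 249 and 250 CPM in floxed and 253 and 258 CPM in Nestin-Cre libraries. Col9a3, a chain of collagen IX, rose from 79.0 and 80.3 to 108 CPM in both (0.44 ± 0.04, edgeR adjusted p = 1.4e-12), and Col2a1, the main collagen gene of cartilage, rose from 8.22 and 9.58 to 13.1 and 12.3 CPM (0.51 ± 0.10, adjusted p = 7.2e-05). Col11a1, a chain of collagen XI, fell from 128 and 127 to 99.9 and 104 CPM (-0.32 ± 0.03). The 3 calls of a fall became 1 without Nestin-Cre replicate 1 or with DESeq2 and 0 in the test against a 1.2-fold change.

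Neural crest, Schwann cell and melanocyte genes, the other known setting of Sox10, gave 0 higher, 3 lower and 8 not called of 11 tested. Pmp22 fell from 84.9 and 84.7 to 52.2 and 53.6 CPM (-0.68 ± 0.04, edgeR adjusted p = 2.0e-16), beside a rise of Sox10. The list had a median log2 fold change of -0.50. The summed level was 582 and 566 CPM in floxed and 537 and 541 CPM in Nestin-Cre libraries. Most of that sum was Ednrb, which did not pass, at 463 and 445 against 457 and 462 CPM. The sum therefore says little about the other genes of the list. Of 10 neural stem cell genes 3 rose, 5 fell and 2 did not pass, with Vim lower (-0.31 ± 0.02) and the Notch target Hes5 higher (0.89 ± 0.06). The 3 rises became 1 without floxed replicate 1, without the low-count filter, with DESeq2 and in the test against a 1.2-fold change.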
